A study of Homo sapiens with 4 samples.

Results

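The regions described here are FOXK2 ChIP-seq peaks of OVCAR5 cells that lie in the second or a later intron of a gene and outside annotated repeats. They were taken from the deposited peak lists by 2 conditions on the authors' annotation, which had to place the peak in an intron other than intron 1, and whose detailed form, which also tests repeats and CpG islands, still had to read intron. The rule used no peak height and no motif. It gave 2141 of 12471 peaks in replicate 1 (17.2%) and 5045 of 27281 peaks in replicate 2 (18.5%). In the text these are called later-intron peaks. A further 786 and 1868 later-intron peaks were left out because the detailed annotation put them in a repeat or a CpG island.

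OVCAR5 is an ovarian cancer line that the labels describe as high grade serous. Chromatin was immunoprecipitated with an antibody against FOXK2 from cells for which the labels name no treatment or genetic change, in 2 replicates of that 1 condition, so no comparison between conditions exists and every test below compares classes of peaks within 1 list. Such tests measure the spread between peaks, not between samples, and several peaks can lie in 1 gene. The 2 input libraries were not analysed here, and neither were read depths, so a difference between the lists in number of peaks cannot be told apart from a difference in sequencing depth.

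FOXK2 is a forkhead transcription factor, a family that reads short T-rich and A-rich DNA sites through a winged-helix domain, and it is known to work both as an activator and as a recruiter of corepressors. Introns of long genes hold many of the enhancers of human cells, and an enhancer in an intron can act on the gene around it or on another gene. AP-1, a dimer of FOS and JUN family proteins, is a common occupant of enhancers in epithelial cancer cells.

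The sequences under 9 of the peaks are shown first, because they include the 6 highest-ranked regions on the chromosomes from which sequence is printed and 3 regions in genes of the unfolded protein response and Wnt signalling. All are hg38, plus strand, at the peak coordinates of replicate 1. Capitals mark the forkhead heptamer TGTTTAC or the AP-1 site TGACTCA, read on either strand, so that GTAAACA and TGAGTCA are the same sites on the other strand. In the ETV1 and ERN1 peaks, which lack the exact heptamer, capitals mark heptamers with 1 base changed.
SQSTM1, chr5:179819092-179819302: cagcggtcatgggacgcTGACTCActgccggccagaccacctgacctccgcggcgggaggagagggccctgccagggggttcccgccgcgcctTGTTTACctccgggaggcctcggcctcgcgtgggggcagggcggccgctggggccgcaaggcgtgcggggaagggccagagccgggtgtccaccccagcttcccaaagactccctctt
FOXK1, chr7:4744939-4745149: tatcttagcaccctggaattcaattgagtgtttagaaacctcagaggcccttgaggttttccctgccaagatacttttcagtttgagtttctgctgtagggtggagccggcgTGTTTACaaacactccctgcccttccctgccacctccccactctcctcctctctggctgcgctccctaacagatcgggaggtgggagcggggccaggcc
PDK2, chr17:50101393-50101603: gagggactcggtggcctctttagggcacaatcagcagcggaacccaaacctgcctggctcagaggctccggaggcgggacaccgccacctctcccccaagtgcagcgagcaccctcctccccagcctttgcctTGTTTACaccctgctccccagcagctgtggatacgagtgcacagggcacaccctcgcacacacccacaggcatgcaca
PIM1, chr6:37172314-37172524: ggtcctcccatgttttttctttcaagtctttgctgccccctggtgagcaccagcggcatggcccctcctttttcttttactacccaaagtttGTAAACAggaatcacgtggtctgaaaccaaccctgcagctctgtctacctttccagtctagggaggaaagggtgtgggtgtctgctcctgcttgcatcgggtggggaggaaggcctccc
VWA8, chr13:41648366-41648576: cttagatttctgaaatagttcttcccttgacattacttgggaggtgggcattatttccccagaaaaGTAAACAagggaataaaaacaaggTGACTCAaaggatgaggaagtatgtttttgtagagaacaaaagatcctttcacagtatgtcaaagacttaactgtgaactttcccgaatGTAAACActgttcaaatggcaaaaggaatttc
ETV1, chr7:13920127-13920337: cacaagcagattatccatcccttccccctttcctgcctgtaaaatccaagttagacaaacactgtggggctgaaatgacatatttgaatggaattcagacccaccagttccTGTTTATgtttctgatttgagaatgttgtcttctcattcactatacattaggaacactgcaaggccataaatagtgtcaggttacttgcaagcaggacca
ERN1, chr17:64082207-64082417: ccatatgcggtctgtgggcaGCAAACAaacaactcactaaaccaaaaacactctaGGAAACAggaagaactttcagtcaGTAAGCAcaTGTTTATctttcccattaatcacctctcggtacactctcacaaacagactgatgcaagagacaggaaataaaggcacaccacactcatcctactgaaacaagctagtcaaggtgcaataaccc
EIF2AK3, chr2:88599970-88600180: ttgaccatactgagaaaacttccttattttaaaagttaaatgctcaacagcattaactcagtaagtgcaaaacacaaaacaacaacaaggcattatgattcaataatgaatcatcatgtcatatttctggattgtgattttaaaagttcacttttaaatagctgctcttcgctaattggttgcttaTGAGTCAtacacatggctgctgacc
TCF7L2, chr10:113087465-113087675: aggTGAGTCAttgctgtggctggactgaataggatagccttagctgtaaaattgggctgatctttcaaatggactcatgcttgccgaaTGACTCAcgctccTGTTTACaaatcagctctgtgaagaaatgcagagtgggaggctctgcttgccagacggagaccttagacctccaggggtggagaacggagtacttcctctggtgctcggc

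Exact heptamers were found in 6 of these 9 peaks, at varied distances from the peak centre. Reading along the plus strand, the centre of the heptamer was 9 bp before the peak centre in SQSTM1, 10 bp after it in FOXK1, 31 bp after it in PDK2, 10 bp before it in PIM1 and 1 bp before it in TCF7L2. In the VWA8 peak 2 copies, 36 bp before and 77 bp after the centre, lay on either side of an AP-1 site. The TCF7L2 peak held AP-1 sites 99 bp and 14 bp before its centre. Counting positions from 1 at the 5′ end of TGTTTAC and giving the heptamer's base first, the ETV1 peak held the change C7T 9 bp from its centre. The ERN1 peak held C7T, T3C, A6C and A6G, all on the same side of its centre. The EIF2AK3 peak held neither the heptamer nor any form of it with 1 base changed, but had an AP-1 site 84 bp from its centre.

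The peaks that were found in both lists rank the class by height. Of the 2141 later-intron peaks of replicate 1, 1507 overlapped a later-intron peak of replicate 2 by at least 1 bp, and 1506 of these pairs carried the same transcript and intron number. Their centres were a median of 29 bp apart. The peak score that HOMER assigns is scaled within a library, so each peak was ranked in its own list, and a percentile of 100 is the top of that list. Over the 1507 pairs the scores had a Spearman's rho of 0.844, given as a description across peaks. In 404 pairs the percentiles in the 2 lists differed by more than 25. The lists differ in length, and overlapped later-intron peaks had median percentiles of 59.7 in replicate 1 and 77.9 in replicate 2. The count of 404 is therefore not a measure of disagreement in height alone.

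The strongest shared later-intron peak was in SQSTM1, the autophagy receptor that links ubiquitinated cargo to the autophagosome. Its score was 60.4 in replicate 1 (rank 8) and 113.3 in replicate 2 (rank 10). The annotation placed it in intron 2 of 8 of an alternative transcript, while it lies upstream of the canonical transcript and 230 bp from a GENCODE transcript start. The next was in intron 2 of FOXK1, the closest relative of FOXK2, whose score of 49 in replicate 1 held rank 17 and whose score of 86.8 in replicate 2 held rank 21. The deposited gene name of this peak was AP5Z1, because the files name the gene of the nearest start. It was 4185 bp from any annotated start.

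The other leading shared peaks lay in genes of mixed function. LINC01606, a long noncoding RNA, had scores of 37.4 and 66.3 in replicates 1 and 2. PDK2, a kinase that inhibits pyruvate dehydrogenase, had scores of 36.4 and 68.6, with an annotated start 422 bp away. PIM1, a serine/threonine kinase and proto-oncogene, had scores of 35.3 and 69.9, with a start 49 bp away. VWA8, ATP8B4, LINC01483 and IL17REL completed the first 10 together with ETV1, an ETS-family transcription factor, whose scores were 31.1 and 60.5. Of these 10 peaks, ETV1 was the only one without an exact heptamer within 100 bp of its centre. The last of the 10, IL17REL, had a mean percentile of 99.4.

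**Figure D1:**
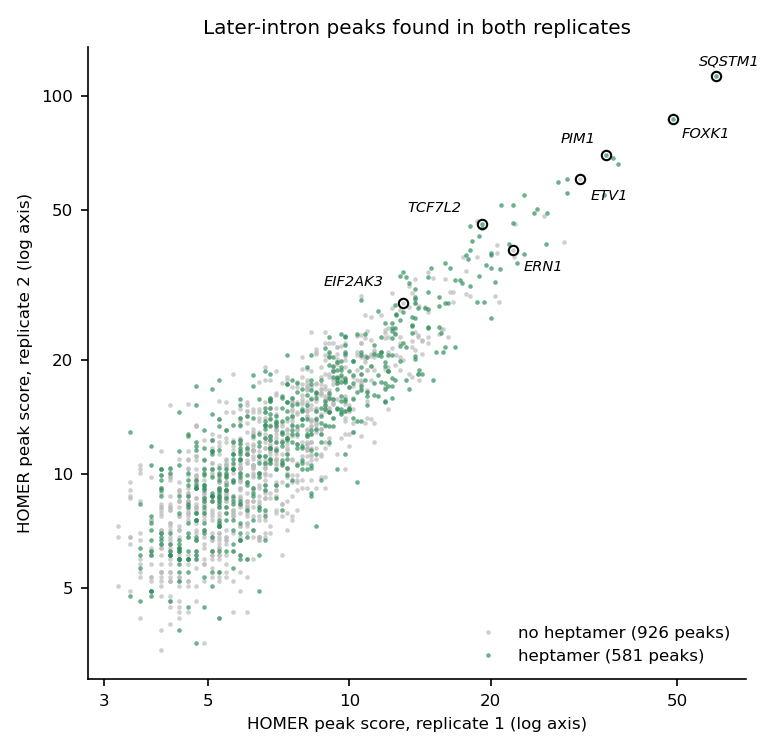
HOMER peak score of the 1507 later-intron peaks found in both replicates, replicate 1 on the horizontal and replicate 2 on the vertical log axis, each point being 1 pair of overlapping peaks and green points having a heptamer in the replicate 1 window. Named circles mark host genes; SQSTM1 is the highest in both replicates, at 60.4 and 113.3, and 581 of the pairs are green.

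The 1507 shared peaks lay in 1183 host genes, of which 953 held 1 and 230 held 2 or more. SPOCK1, which encodes the proteoglycan testican, and the noncoding LINC-PINT held 7 each, RALGPS1, a Ral guanine nucleotide exchange factor, held 6, and TCF7L2, MACROD2, LRP1B, RUNX1, TEAD1 and AOPEP held 5. SCHIP1, the last named by the rule for most shared peaks, was 1 of 10 genes tied at 4. Hosts were long genes, with a median of 145 kb over all hosts of shared peaks and 408 kb over those with 4 or more, against 24.1 kb for all protein-coding genes in the reference. No test is given for this difference, since a longer gene has more room for peaks. The reference was not limited to genes with a second intron, and the hosts also include noncoding genes. Per 100 kb of gene, LINC-PINT had 3.01 shared peaks and TCF7L2 2.30, while MACROD2 had 0.243 and LRP1B 0.263.

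Within SPOCK1 the 7 shared peaks differed widely in height. The highest, in intron 3, had a score of 16.6 in replicate 1 and 28.6 in replicate 2, at percentiles 96.3 and 97.8. The lowest by mean percentile had scores of 5.47 and 10.7. In all, SPOCK1 held 7 later-intron peaks in replicate 1 and 11 in replicate 2, with no promoter peak in either list. For 5 of the 7 shared peaks the nearest start, and so the deposited gene name, belonged to another gene, LOC105379192. TCF7L2, the transcription factor that carries Wnt signals to chromatin, had all 5 shared peaks in intron 5 of 12. The one printed above had scores of 19.2 and 45.8, at percentiles 97.4 and 99.3, and the other 4 had scores between 5.28 and 8.49 in replicate 1 and between 7.29 and 15.6 in replicate 2. TCF7L2 had a promoter peak in both lists.

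For a later-intron peak, the host gene and the gene of the nearest start were often different. Among peaks for which both genes could be matched, they differed for 892 of 2131 in replicate 1 (41.9%, Wilson 95% interval 39.8% to 44%) and 2147 of 5019 in replicate 2 (42.8%, 41.4% to 44.2%). For first-intron peaks outside repeats the shares were 13.7% and 14.8%. No test is given for this difference, since a first intron begins near the start of its own gene and the intron number that defines the class bears on it. Among the 100 shared peaks with the best mean percentile, 41 were named after a gene other than their host. Peaks in FOXK1, VWA8, CDK6, IGF1R, TNS3 and MAP3K5 are examples from the whole list, and in the deposited lists those in TNS3 carry the name SNORD151. The distance from the peak to its deposited start had a median of 37.8 kb in replicate 1 and 38.9 kb in replicate 2, with quartiles of 16.5 and 76.3 kb in replicate 1.

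Of the 1579 host genes of later-intron peaks in replicate 1, 236 (14.9%) had a peak in the promoter class, as did 653 of 3079 hosts (21.2%) in replicate 2. The shares for hosts of first-intron peaks were 15.0% and 21.4%. Among protein-coding genes, 16.3% of the later-intron hosts and 11.9% of all genes had a promoter peak in replicate 1, and 22.9% and 21.2% in replicate 2, given with no test. A first-intron peak was present in 15.2% and 21.9% of the later-intron hosts.

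The label was checked against the canonical GENCODE transcript of each host gene. The peak centre was in its second or a later intron for 1940 of 2141 peaks in replicate 1 (90.6%) and 4583 of 5045 in replicate 2 (90.8%). It was in the first intron for 2.71% and 2.40%, and upstream of the transcript for 2.76% and 2.56%, as for SQSTM1. It was in an exon for 5 and 6 peaks. For 2.57% and 3.01% of peaks no canonical transcript on the same chromosome was matched. Noncoding transcripts hosted 15.9% of the peaks in replicate 1 and 16.3% in replicate 2.

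Intron 2 held the most peaks, 632 in replicate 1 (29.5%) and 1495 in replicate 2 (29.6%), followed by intron 3 with 15.9% in both lists. Per megabase of canonical intron, intron 2 was not the densest. Intron 2 had 1.54 peaks per Mb (95% Poisson interval 1.41 to 1.68) in replicate 1, introns 6 to 10 had 1.94 (1.76 to 2.13), and introns beyond number 10 had 1.60 (1.44 to 1.77). In replicate 2 the values were 3.62 (3.41 to 3.83), 4.24 (3.98 to 4.51) and 4.07 (3.81 to 4.34). The first intron, from the class of first-intron peaks, had 2.27 (2.14 to 2.40) and 4.68 (4.49 to 4.87), above the 1.62 (1.55 to 1.69) and 3.82 (3.71 to 3.93) of all later introns together. The lengths include repeats, bases shared by overlapping genes count for each gene, and the intervals cover counting error only.

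**Figure D2:**
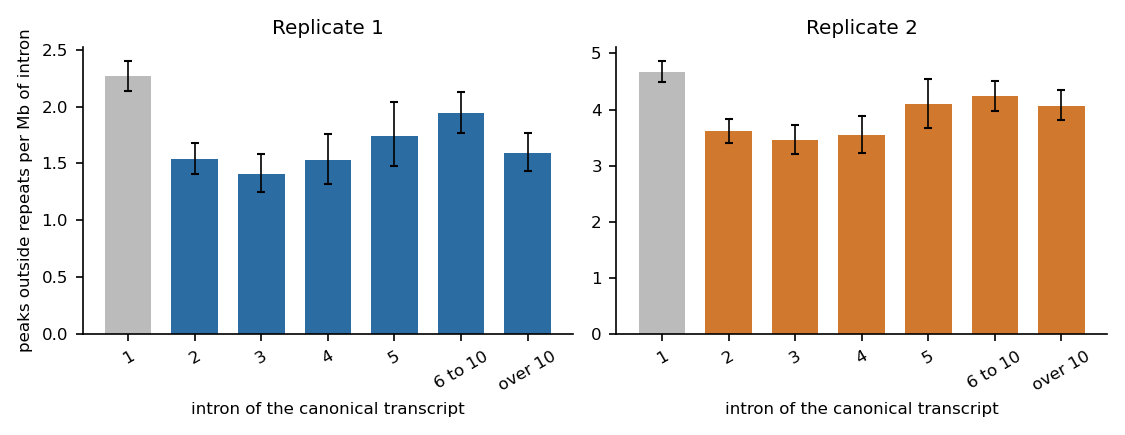
Peaks outside repeats per megabase of canonical intron, by intron number, for replicate 1 and replicate 2, with 95% Poisson intervals as error bars and first-intron peaks in grey for comparison. Intron 1 is highest in both lists, at 2.27 and 4.68 per Mb, and introns from 2 on vary between 1.41 and 1.94 in replicate 1 and between 3.46 and 4.24 in replicate 2.

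The host introns were long, and the peaks were spread evenly along them. The canonical later intron around a peak had a median length of 20.4 kb in both lists, against 1.499 kb for all 202386 canonical later introns and 29.0 kb when each of these introns was weighted by its length. With each intron cut into 4 equal segments from 5′ to 3′, replicate 1 had 25.2%, 24.6%, 24.6% and 25.5% of the peaks, and replicate 2 had 25.9%, 24.1%, 25.1% and 24.9%. The nearest exon of the canonical transcript was a median of 3.65 kb away in replicate 1 and 3.71 kb in replicate 2.

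A minority of the peaks lay near a transcript start that the class name hides. Within 1000 bp of the start of any GENCODE transcript were 257 later-intron peaks in replicate 1 (12%, 10.7% to 13.4%) and 627 in replicate 2 (12.4%, 11.5% to 13.4%). First-intron peaks had 22.0% and 19.7%, and intergenic peaks outside repeats 6.97% and 6.50%. Both are given with no test, since the gene annotation that sets these classes also sets where starts lie. Among the 100 best shared peaks 18 were that close, among them SQSTM1, PDK2, PIM1 and, at 414 bp, ERN1. Compared with the other later-intron peaks, those near a start had an AP-1 site less often, in 16.7% against 23.7% in replicate 1 and in 18.5% against 23.2% in replicate 2 (two-sided Fisher's exact test with Benjamini-Hochberg adjustment, adjusted exact p = 0.0303 and 0.0208). Their GC content had a median of 46.8% in both lists, against 43.3% and 42.8%. The SP/KLF site GGGCGGG, a promoter element, was more frequent near starts in replicate 2, in 6.54% against 2.42% (adjusted exact p = 1.06e-06), and the difference in replicate 1, 3.50% against 2.49%, did not pass the test (adjusted exact p = 0.444).

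The exact heptamer TGTTTAC was present within 100 bp of the centre of 725 of 2141 later-intron peaks in replicate 1 (33.9%, 31.9% to 35.9%), where 30.5% of all peaks in the list had it. In replicate 2 it was in 1504 of 5045 (29.8%, 28.6% to 31.1%), where 28.2% of all peaks had it. Control windows of the same length, 2000 bp to each side, were pooled over peaks, so the test did not use their pairing with peaks. The heptamer was in 3.27% and 3.04% of them (adjusted exact p = 6.06e-240 in replicate 1 and too small to be represented in replicate 2). First-intron peaks had it in 35.6% and 32.1%, and intergenic peaks in 33.9% and 30.4%, and none of these 4 differences passed the test (adjusted exact p from 0.0617 to 1). Promoter peaks had it in 14.4% and 10.9%, fewer than later-intron peaks in both lists (adjusted exact p = 1.83e-56 and 2.31e-123). The promoter class was taken with no exclusion of repeats or CpG islands. Its windows had a median GC content of 63.2% and 63.7%, against 43.8% and 43.3% for later-intron peaks. The part of base composition in the motif differences from promoters was not tested.

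The AP-1 site was in 489 later-intron peaks of replicate 1 (22.8%, 21.1% to 24.7%) and 1140 of replicate 2 (22.6%, 21.5% to 23.8%), where 16.4% and 16.6% of all peaks had it. Control windows had it in 3.69% and 3.19% (adjusted exact p = 6.79e-119 and 9.42e-298). First-intron peaks had it less often than later-intron peaks, in 17.0% and 18.1% (adjusted exact p = 6.35e-05 and 5.33e-06). Intergenic peaks had 22.6% and 21.0%, differences that did not pass the test (adjusted exact p = 0.914 and 0.0864), and promoter peaks had 3.88% and 3.36%. In replicate 2 the call on the difference from intergenic peaks, 1.56 percentage points, changed with the setting. It passed at 2.61 with 1 peak per host transcript (adjusted exact p = 0.00797), which keeps the highest-scoring peak of each transcript and all intergenic peaks, and at 2.10 beyond 1000 bp of a start (adjusted exact p = 0.0232). It was 0.40 in the higher-scoring 50% of the list and 0.377 within 50 bp of the centre (adjusted exact p = 0.875 and 0.680). In replicate 1 it ran from -0.435 to 1.41 and passed under no setting.

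**Figure D3:**
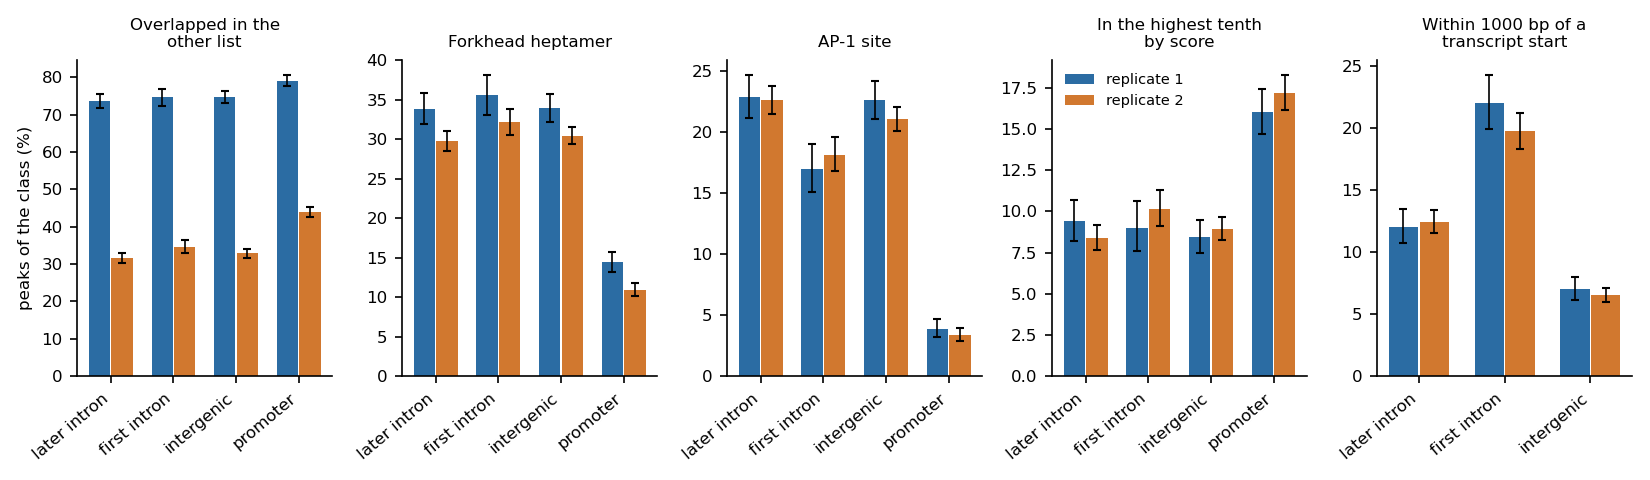
Share of peaks, in percent of each class, that overlap a peak of the other list, hold the forkhead heptamer or the AP-1 site within 100 bp of the centre, rank in the top 10% of their list by score, or lie within 1000 bp of a GENCODE transcript start, with Wilson 95% intervals as error bars, for replicates 1 and 2. Later-intron peaks stand apart from first-intron peaks in the AP-1 panel, 22.8% against 17.0% and 22.6% against 18.1%, and from promoter peaks in every panel that shows both.

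Of the other 9 motifs in the panel, the TEAD site ACATTCC and the RUNX site TGTGGTT were the most frequent and stood above control windows in both lists. TEAD proteins are the DNA-binding partners of YAP, and RUNX proteins are runt-domain factors. TEAD was in 8.59% and 7.43% of later-intron peaks against 2.85% and 2.71% of control windows (adjusted exact p = 4.18e-22 and 3.14e-38). RUNX was in 7.99% and 8.25% against 4.32% and 4.12% (adjusted exact p = 1.28e-08 and 9.78e-24). First-intron and intergenic peaks had both sites at similar shares, 7.76% and 7.54% for TEAD and 7.91% and 8.60% for RUNX in first introns, and 8.70% and 7.59% for TEAD and 9.19% and 9.26% for RUNX in intergenic peaks, and none of these differences passed the test (adjusted exact p from 0.111 to 0.999). The ETS site CCGGAAG, at 1.26% and 1.49%, the SP/KLF site, at 2.62% and 2.93%, the E-box CACGTG, at 3.74% and 3.71%, and the NFI half-site CTTGGCA, at 5.18% and 5.53%, were also above control in both lists. The SP/KLF site was less frequent than in first-intron peaks, which had it in 4.03% and 3.92% (adjusted exact p = 0.0485 and 0.0409), and so was the E-box in replicate 1, at 5.39% in first-intron peaks (adjusted exact p = 0.0483), but not in replicate 2 (adjusted exact p = 0.0686). Both replicate 1 calls lay just under the threshold of 0.05. The adjustment also covered comparisons for which no test is given above, with small p-values, so these calls depend on which tests are adjusted together. The ETS and SP/KLF sites were in promoter peaks more often, at 18.0% and 18.4% for ETS and 35.0% and 36.9% for SP/KLF. The grainyhead-like site AACCNGTT passed against control in replicate 2, at 2.02% against 1.33% (adjusted exact p = 0.00402), and not in replicate 1 (adjusted exact p = 0.599). The NF-Y site CCAATCA and the CEBP site TTGCGCAA did not pass against control in either list.

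Heptamers were sharply centred and AP-1 sites less so. The central 100 bp held 28.7 heptamers per 100 later-intron peaks in replicate 1 and 26.0 in replicate 2, against 1.56 and 1.46 per 100 bp beyond 400 bp from the centre. For AP-1 the central values were 14.4 and 14.0, against 1.91 and 1.81. Of all heptamers within 500 bp of a centre, 55.3% and 56.7% were in the central 100 bp, compared with 28.1% and 29.0% of AP-1 sites. In the peaks with 1 of each, 112 in replicate 1 and 207 in replicate 2, the sites were a median of 43 and 47 bp apart.

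**Figure D4:**
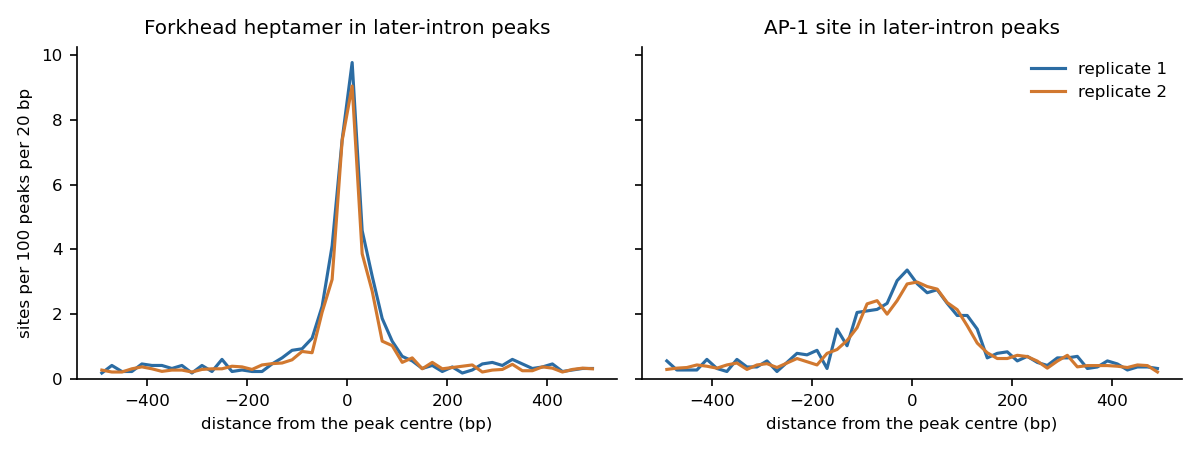
Forkhead heptamers (left) and AP-1 sites (right) per 100 later-intron peaks in 20-bp bins, against distance from the peak centre in bp, for replicates 1 and 2. The heptamer forms a narrow peak at the centre and the AP-1 site a lower and broader one; the central 100 bp held 28.7 and 26.0 heptamers but 14.4 and 14.0 AP-1 sites.

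The heptamer was less common in later-intron peaks that had an AP-1 site. It was in 126 of 489 such peaks in replicate 1 (25.8%) against 599 of 1652 without AP-1 (36.3%; two-sided Fisher's exact test, adjusted exact p = 3.60e-05), and in 229 of 1140 (20.1%) against 1275 of 3905 (32.7%; adjusted exact p = 2.89e-16) in replicate 2. The order was the same in each of 5 equal score bins of the list, from 15.6% against 26.8% in the lowest to 46.3% against 56.1% in the highest for replicate 1, and from 9.84% against 29.3% to 37.3% against 44.3% in replicate 2. First-intron and intergenic peaks had values in the same order, for instance 28.4% against 37.1% and 26.5% against 36.1% in replicate 1, whereas promoter peaks with AP-1 had the heptamer in 19.0% against 14.2%. At least 1 of the 2 motifs was in 50.8% of later-intron peaks in replicate 1 and 47.9% in replicate 2, and both were in 5.89% and 4.54%.

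Later-intron peaks without the exact heptamer often held one with 1 base changed. All 21 such forms were counted in the 1416 and 3541 peaks without the exact heptamer and in control windows that also lacked it, with p-values adjusted over the 42 tests. In both lists 8 forms were above control and none was below it, although the form G2T, TTTTTAC, was less frequent than control in replicate 2 (3.28% against 4.78%, adjusted exact p = 0.000326). The form T5G, TGTTGAC, had the highest ratio to control, 6.85 in replicate 1 and 5.24 in replicate 2. It was at 13.1% against 1.91% in replicate 1 (adjusted exact p = 6.17e-54) and 10.9% against 2.09% in replicate 2 (adjusted exact p = 3.81e-90). Its last 4 bases can begin an AP-1 site, and counting only copies clear of one left 12.4% and 10.4%. The form C7T, TGTTTAT, was the most frequent, at 20.1% against 5.43% and 18.8% against 5.57% (adjusted exact p = 1.21e-52 and 8.26e-106). The form G2A, TATTTAC, was at 12.4% against 3.91% and 12.1% against 3.99%. The form T4G, TGTGTAC, was at 6.36% against 2.15% and 5.51% against 2.01%. The other 4 raised forms, A6G, A6C, A6T and T4A, were 1.52 to 2.42 times as frequent as in control.

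With these 8 forms added, which were picked by their values, 76.9% of later-intron peaks in replicate 1 and 73.0% in replicate 2 held the heptamer or a raised form of it, and so did 28.6% of control windows in each list. The C7T site of the ETV1 peak and the C7T, A6G and A6C sites of the ERN1 peak are of this kind. No heptamer, raised form, AP-1, TEAD or RUNX site was found in 13.6% and 16.0% of later-intron peaks, compared with 64.1% and 64.8% of control windows.

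Around the exact heptamer the following base was A in 49.3% of 775 copies in replicate 1 and 49.2% of 1602 in replicate 2, giving TGTTTACA, against 39.9% and 41.5% in control windows. Before the heptamer T was the most frequent base, in 32.8% and 34.3%, against 27.3% and 28.4% in control windows. In peaks with a single heptamer, it read in the direction of the host gene in 360 of 662 (54.4%, 50.6% to 58.1%) and 737 of 1367 (53.9%, 51.3% to 56.5%) cases (two-sided exact binomial test, adjusted exact p = 0.0267 and 0.00826 over the pair). The excess in replicate 1 did not pass with 1 peak per host transcript or beyond 1000 bp of a start (adjusted exact p = 0.163 and 0.116), and the lists share many peaks. The binomial test was against equal shares on both strands. Heptamer strand was not counted in control windows, so whether the excess is particular to peaks was not tested.

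Peaks with several heptamers did not have a higher median percentile than those with 1. The median percentile was 45.8 for later-intron peaks with no heptamer in replicate 1, 59.7 for the 678 with 1 and 52.2 for the 47 with 2 or more. In replicate 2 the medians were 43.5, 54.4 for the 1410 with 1, and 49.98 for the 94 with 2 or more.

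Motif content rose with peak score. With each whole list cut into 5 equal bins by score, the heptamer share of later-intron peaks went from 24.8% in the lowest bin to 53.2% in the highest in replicate 1, and from 26.0% to 42.3% in the other list. Most of the rise was between the highest bin and the one below it, which had 53.2% and 33.0% in replicate 1 and 42.3% and 29.9% in replicate 2. The AP-1 share went from 18.0% to 30.1% and from 17.0% to 28.3%. Of the 100 best shared peaks, 67 had the heptamer in the replicate 1 window, 37 had AP-1 and 18 had neither.

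**Figure D5:**
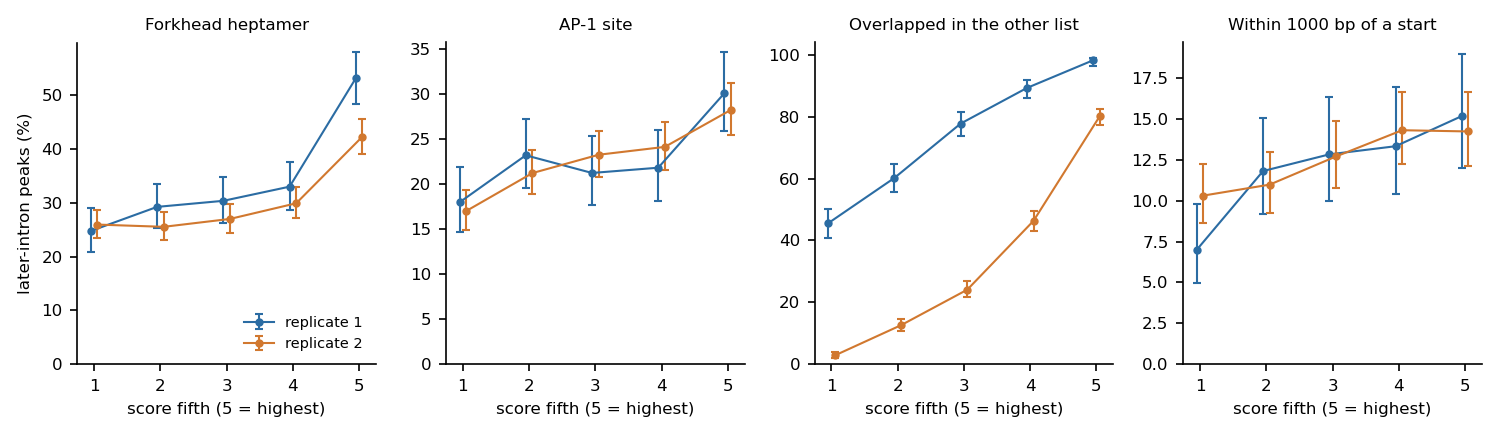
Share of later-intron peaks, in percent, with the heptamer, with the AP-1 site, overlapped by a peak of the other list, or within 1000 bp of a GENCODE transcript start, by score bin of the whole list (5 is the highest), with Wilson 95% intervals, for replicates 1 and 2. The heptamer share reaches 53.2% and 42.3% and the overlapped share 98.3% and 80.2% in the highest bin.

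In replicate 1, 1577 of 2141 later-intron peaks were overlapped in the other list (73.7%, 71.8% to 75.5%), where 74.9% of all peaks were, against 74.8% of first-intron peaks and 74.7% of intergenic peaks (adjusted exact p = 0.599 and 0.532). In replicate 2, 1591 of 5045 were overlapped (31.5%, 30.3% to 32.8%), where 34.2% of all peaks were, against 34.6% of first-intron peaks (adjusted exact p = 0.0119) and 32.9% of intergenic peaks (adjusted exact p = 0.218). The difference from first-intron peaks did not pass with 1 peak per host transcript, beyond 1000 bp of a start, in the higher-scoring 50% of the list or with lists of equal length (adjusted exact p from 0.0632 to 0.937). With 1 peak per host transcript, which keeps the highest-scoring peak of each transcript and all intergenic peaks, the difference from intergenic peaks in replicate 2 turned from -1.33 to 3.68 percentage points (adjusted exact p = 0.000699). Promoter peaks were overlapped more often, at 79.1% and 43.9% (adjusted exact p = 2.38e-05 and 1.46e-36). This difference did not pass in the higher-scoring 50% of either list (adjusted exact p = 0.854 and 0.0726). Lists of equal length took it from -12.4 to -2.60 percentage points in replicate 2, which did not pass (adjusted exact p = 0.117). In replicate 1 they took it from -5.49 to -8.48 percentage points (adjusted exact p = 3.99e-09). Promoter peaks also ranked higher, with 16.0% and 17.2% of them in the top 10% of their list, against 9.39% and 8.38% of later-intron peaks (adjusted exact p = 2.74e-11 and 1.95e-39). First-intron peaks had 8.99% in the top 10% in replicate 1 (adjusted exact p = 0.847) and 10.1% in replicate 2 (adjusted exact p = 0.0210), and the call in replicate 2 was lost with 1 peak per host transcript, beyond 1000 bp of a start or in the highest 5%. When peaks were compared within 10 equal score bins of the list, a comparison added after the data were seen, the common odds ratio of later-intron against promoter peaks was 0.925 (95% interval 0.798 to 1.07) in replicate 1 and 0.981 (0.886 to 1.09) in replicate 2, and against first-intron peaks it was 0.949 (0.80 to 1.12) and 1.02 (0.901 to 1.14).

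Later-intron peaks with a partner were richer in both motifs. The heptamer was in 38.5% of the overlapped peaks of replicate 1 and 20.9% of the others, and in 38.7% and 25.7% in replicate 2. AP-1 was in 24.4% and 18.6%, and in 26.1% and 21.0%. The overlapped peaks also had higher scores, with median percentiles of 59.7 against 21.9 and 77.9 against 32.9, and the part of score in the motif difference was not tested.

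The gene lists below were chosen with earlier results of these data known, and their shares are counts with no test. Of the genes of the unfolded protein response, the pathway by which cells answer misfolded protein in the endoplasmic reticulum, 3 of 35 hosted a shared later-intron peak (8.57%), where 1055 of all 20056 protein-coding genes did (5.26%). The latter were not limited to genes with a second intron. ERN1, which encodes the stress sensor with kinase and endoribonuclease activity, had its shared peak in intron 2 of 21, with scores of 22.3 and 39.1 in replicates 1 and 2, at ranks 209 and 272. Replicate 2 had a second ERN1 peak in the same intron, with a score of 6.10 and no partner. EIF2AK3, the sensor kinase that phosphorylates a translation initiation factor, had a peak in intron 2 of 16 with scores of 13.0 (rank 906) and 28.4 (rank 616), and a promoter peak in both lists. PDIA3, an endoplasmic reticulum disulfide isomerase, had a peak at a mean percentile of 52.7. Over all protein-coding genes, 7.0% in replicate 1 and 13.5% in replicate 2 hosted a later-intron peak, and of this list 8.57% and 11.4% did, close to that background. The median mean percentile was 95.2 over the 3 shared peaks of the list and 68.2 over all 1507.

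Of the 22 stemness genes, against the same 5.26% of all protein-coding genes, none hosted a shared later-intron peak, and 1 in replicate 1 (4.55%) and 5 in replicate 2 (22.7%) hosted a peak in that list, where 7.0% and 13.5% of all protein-coding genes did. Of 32 genes of forkhead factors and insulin signalling 9 hosted shared peaks (28.1%), led by FOXK1. FOXP1, a forkhead repressor, had 3, the highest with scores of 14.9 and 35.1. RPTOR, a subunit of the mTOR complex, had 2, the higher with scores of 13.4 and 32.1, and IGF1R, the receptor of insulin-like growth factor, had 3. Of 26 autophagy and lysosome genes 3 hosted shared peaks (11.5%), SQSTM1 at the top of all and ATG10 and PIK3C3 at mean percentiles of 38.2 and 23.2.

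Genes of the factors whose motifs were in the panel were also among the hosts. Of 21 YAP and TEAD genes 6 hosted shared peaks (28.6%, against 5.26% of all protein-coding genes), and TEAD1 itself had 5, with scores of 6.23 to 9.81 in the first list and 10.6 to 21.0 in the second list. STK4, a Hippo pathway kinase, had 2, the higher with scores of 11.1 and 20.5. Of 35 genes of chromatin partners and AP-1 or ETS cofactors 14 hosted shared peaks (40%). As the lists were chosen with earlier results known, such a share is no independent measure of enrichment. RUNX2 had a peak in intron 5 of 7 with scores of 16.8 and 32.6, RUNX1 had 5 shared peaks, and ETS2 and ETV5 had 1 each at mean percentiles of 89.2 and 88.9. ATXN1, which encodes a nuclear protein that binds transcriptional corepressors, had 4 later-intron peaks in replicate 1 and 9 in replicate 2 but only 2 shared, the higher with scores of 6.23 and 10.6.

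The other lists had hosts in the same manner. Of 34 TGF-beta, Wnt and Notch genes 9 hosted shared peaks (26.5%, against 5.26% of all protein-coding genes), including TCF7L2, the scaffold AXIN1, SMAD6 and TGFBR2. Of 33 adhesion and cytoskeleton genes 8 did (24.2%), and TNS3, a focal adhesion protein, had 3 with scores of 11.9 to 13.8 and 17.0 to 33.3 in the respective lists. PTK2, focal adhesion kinase, had 1 with scores of 14.0 and 23.3, and CDH1, which encodes E-cadherin, had 1 at a mean percentile of 88.7. Of 31 AP-1 and MAPK feedback genes 6 did (19.4%), led by MAP3K5, and of 22 cell cycle genes 4 did (18.2%), led by CDK6, a kinase of the G1 phase, with 3 shared peaks. The shares of genes that hosted a later-intron peak ran from 4.55% for stemness to 40% for chromatin partners in replicate 1, and from 11.4% for the unfolded protein response to 60% for chromatin partners in the longer list, where all protein-coding genes had 7.0% and 13.5%, so that the lowest share in each replicate was below that of all genes. Gene length and number of introns differ between genes, and their part in these shares was not tested.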

How the data were processed

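ChIP-seq peak lists of 2 replicates were analysed. According to the paper's methods and the submitters' processing notes, the authors aligned reads to hg38 with Bowtie2 2.2.6 and called and annotated peaks with HOMER 4.10, separately per replicate. In the deposited lists a peak spans 211 bases in replicate 1 and 257 in replicate 2. The deposited peak score was ranked only within its list, and the focus ratio, a fraction of tags that the authors' software placed on the expected side of the centre, had a median of 0.762 and 0.758 over later-intron peaks. Columns of nearest genes were used for names only, and no per-sample column was left out (0).

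Shares carry Wilson 95% intervals, which cover counting error only. Classes were compared with two-sided Fisher's exact tests, with Benjamini-Hochberg adjustment over the 120 class tests. The 120 include the comparisons of host with nearest gene and of distance to a start, for which no test is given. Motifs were searched on both strands in 201-base windows. In all tests against control, windows were pooled over peaks and treated as independent, and their pairing with peaks was not used. Hosts were matched through RefSeq transcripts, and 6 and 15 peaks had no match. GENCODE release 44 gave starts and canonical transcripts. Named genes were hosts of the 10 shared peaks ranked highest by mean percentile, the 10 hosts with most shared peaks, up to 4 hosts per gene list, ERN1, EIF2AK3 and ATXN1. The last place among the hosts with most shared peaks was tied. The peak class and the gene lists were chosen with earlier results of these data known. The single-base forms, the host comparison with hosts matched by the reference table only and the comparison within score bins were added after the files were seen. On simulated data the steps for overlap and motifs were checked, and the largest error was 0. Alternatives were other windows, overlaps, controls, distances and subsets of peaks. The software was Python 3.11.15 with scipy 1.17.1, numpy 2.4.6, statsmodels 0.14.6 and pandas 2.3.3, besides pysam 0.24.0, samtools 1.23.1 and matplotlib 3.10.9. Reads and input libraries were not analysed here, so depth was unknown.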

Additional observations from a re-analysis of the deposited data

How the results depend on the processing

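Of 234 alternative values for 40 results, 203 kept their direction and their side of the threshold (or, for counts, stayed within 1.5 times). No heptamer or AP-1 difference against control windows, first introns or promoters changed its call or direction. Values below are differences in percentage points, later-intron minus the other class. The lower overlap than promoter peaks no longer passed in the higher-scoring 50% of each list, at -0.424 in replicate 1 and -2.84 in replicate 2. Nor did it pass as a common odds ratio over 10 score bins, at 0.925 and 0.981. With lists of equal length it no longer passed in replicate 2, at -2.60, but grew in replicate 1 from -5.49 to -8.48. Against first introns in replicate 2 the lower overlap no longer passed with 1 peak per host transcript (-1.69), beyond 1000 bp of a start (-2.60), in the higher-scoring 50% (-0.323) or with lists of equal length (-1.01). The odds ratio over 10 score bins was 1.02 there, on the other side of 1. Keeping the highest peak per host transcript keeps higher scores in the members but leaves intergenic peaks as they are. With it, overlap against intergenic peaks turned to 3.68 in replicate 2, the share in the top 10% turned to 2.18 in replicate 2 and passed at 2.77 in replicate 1, and AP-1 against intergenic peaks passed at 2.61 in replicate 2. AP-1 also passed there beyond 1000 bp of a start, at 2.10. The top-10% difference from first introns in replicate 2 no longer passed with 1 peak per transcript (-1.40), beyond 1000 bp of a start (-1.52) or in the highest 5% (-0.707). The heptamer strand in replicate 1 no longer passed with 1 peak per transcript (53.1%) or beyond 1000 bp of a start (53.3%). Shared peaks numbered 878 in 716 hosts in the higher-scoring 50% of both lists. With 1 replicate left out no peak can be shared, and the count is that of all later-intron peaks in the remaining list. It was 5045 peaks in 3079 hosts without replicate 1, and 2141 peaks in 1579 hosts without replicate 2. Differences that did not pass the test either way changed sign in 7 cases: in replicate 1, overlap against first introns with an overlap of at least 50% of the shorter peak (0.323), overlap and heptamer against intergenic peaks with 1 peak per transcript (1.44 and 1.20), AP-1 against intergenic peaks with 250 bp to each side (-0.435) and the top-10% share against first introns in the highest 5% and 25% (-0.749 and -1.93), and in replicate 2 heptamer against intergenic peaks with 1 peak per transcript (1.06). The causes were not tested. No paired analysis was possible because the peak lists used here are those of the 2 immunoprecipitated libraries, with no list for an input library, and no test ran across samples. With 2 replicates, depth unknown and no input signal, the precision is that of counts of peaks.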
